A study of Mus musculus with 8 samples.

Results

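The genes described here are 37 nuclear receptor coregulators, the coactivators and corepressors that nuclear receptors recruit to DNA. They were listed by name and function, and all 37 were found among the 50686 gene identifiers of the count table and among the 16018 genes with enough reads to be tested. They comprise the p160 coactivators, other NCOA proteins, the PGC-1 pair, lysine acetyltransferases, arginine methyltransferases, subunits of Mediator and of SWI/SNF, corepressors with their deacetylases, and 4 further modifiers of receptor activity. Ventral hippocampus was taken for RNA-seq from male C57BL/6J mice (strain given as C57B6/J in the labels), aged 8 weeks, for which no transgene or deletion is named. In the morning, 4 mice were injected with vehicle (libraries 1 to 4) and 4 with 3 mg/kg corticosterone, the main glucocorticoid of rodents (libraries 5 to 8), and all were killed after 3 h. The comparison asks whether an acute rise in corticosterone is followed by a change in the mRNA of the proteins through which its own receptors act.

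Corticosterone binds the glucocorticoid receptor (*Nr3c1*) and the mineralocorticoid receptor (*Nr3c2*), transcription factors that are both abundant in the hippocampus. A receptor with bound agonist takes up p160 coactivators through short leucine-rich motifs, and these bring in acetyltransferases, arginine methyltransferases, chromatin remodellers and Mediator, which together open chromatin and engage RNA polymerase. Corepressors such as NCOR1 instead bring histone deacetylases, so that the supply of both kinds of protein can set how strongly a cell responds to the hormone.

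Each library held between 17492159 and 19931987 reads counted on genes, and a member had between 89 reads (lowest library) and 6204 reads (highest library). Markers of neurons made up the largest summed level of the cell type lists, with 200200 to 236200 normalized counts after vehicle and 201800 to 216100 after corticosterone over 8 genes. The summed level of 6 microglial markers was 4488 to 4734 after vehicle and 3199 to 4294 after corticosterone, and that of 5 endothelial markers was 1629 to 1761 and 1360 to 1512, so in both lists the sums did not overlap. Taken singly, the groups did not overlap in 2 of the 6 microglial markers (*Cx3cr1* and *P2ry12*) and in 0 of the 5 endothelial markers. The fitted log2 differences were below 0 in all of them, from -0.76 to -0.08 and from -0.72 to -0.02. The sums of 6 oligodendrocyte markers (59250 to 103800 and 57920 to 71670), 6 astrocyte markers (64460 to 80400 and 66760 to 76930), 6 choroid plexus markers (414.6 to 1309 and 614.8 to 1342) and 5 erythrocyte markers (1591 to 5045 and 1545 to 2013) overlapped. The part of these cell types in the values of the coregulators was not tested, and in such bulk tissue fewer cells of a type and less RNA per cell cannot be told apart. Corticosterone library 5 stood apart from the other 3 of its group. On the first principal component of all genes tested, which held 33.7% of the variance, it was at -19.2 while the others were between 18.9 and 23.5, and the vehicle libraries were between -24.8 and 5.11. Counts of members and the family and pair comparisons are given with and without it.

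As a check of the groups, *Fkbp5*, a well-known glucocorticoid target that encodes a chaperone partner of the receptor, had normalized counts of 2373, 1765, 1983 and 1709 after vehicle and 3186, 3510, 3364 and 3177 after corticosterone. Its log2 fold change (log2FC) was 0.76 (standard error 0.097, edgeR quasi-likelihood test, Benjamini-Hochberg adjusted p = 0.0481), and it was the single gene past the threshold of 0.05 among all genes tested (0.00624%). Its log2FC was between 0.69 and 0.86 in all 15 alternative settings, but it missed the threshold in 7 of them (edgeR adjusted p 0.0530 to 0.331), with at least 10 counts required in every sample and without vehicle library 2, 3 or 4 or corticosterone library 6, 7 or 8. The receptor genes were lower on average without passing that threshold. *Nr3c1* had 1489 ± 273 and 1286 ± 89.96 normalized counts (SD, n = 4 mice per group), with a log2FC of -0.21 (edgeR adjusted p = 0.546), and without vehicle library 4 the log2FC was -0.09. *Nr3c2* had 3858 ± 459 and 3288 ± 213, with a log2FC of -0.23 (edgeR adjusted p = 0.512).

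All members were expressed in the ventral hippocampus, over a 19.8-fold range of levels. Levels between genes are given as RPKM, that is reads scaled by the length of the merged exons and by library size. The merged exons of all annotated transcripts can be longer than the mRNA that is made, which lowers the level. The order of genes, their shares and the ratios between them are therefore approximate, while a gene's comparison between groups does not depend on this length. After vehicle, 14 members were above 10 RPKM, 14 between 5 and 10 and 9 under 5. The highest level was that of *Smarca4*, which encodes an ATPase of the SWI/SNF chromatin remodeller, with 31.1 ± 2.19 RPKM (SD, n = 4). It was followed by the acetyltransferase gene *Kat2a* with 24.8 ± 1.31, the corepressor gene *Ncor1* with 22.9 ± 2.15, the deacetylase gene *Hdac3*, whose product works within the NCOR complex, with 22.0 ± 0.360, and the arginine methyltransferase gene *Prmt1* with 21.5 ± 1.29. The lowest levels were those of *Med12* (2.96 ± 0.378), *Ncoa4* (1.99 ± 0.114) and *Ppargc1b* (1.57 ± 0.129). The order was graded rather than stepped. Of the 36 pairs of neighbours in it, 30 had overlapping ranges over the 4 vehicle libraries. The 6 that did not were *Smarca4* over *Kat2a*, *Pias2* over *Kat5*, *Kat5* over *Ncoa5*, *Smarcc1* over *Smarcb1*, *Med12* over *Ncoa4* and *Ncoa4* over *Ppargc1b*. After corticosterone, 13 members held the same rank and no member moved by more than 4 ranks.

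**Figure D1:**
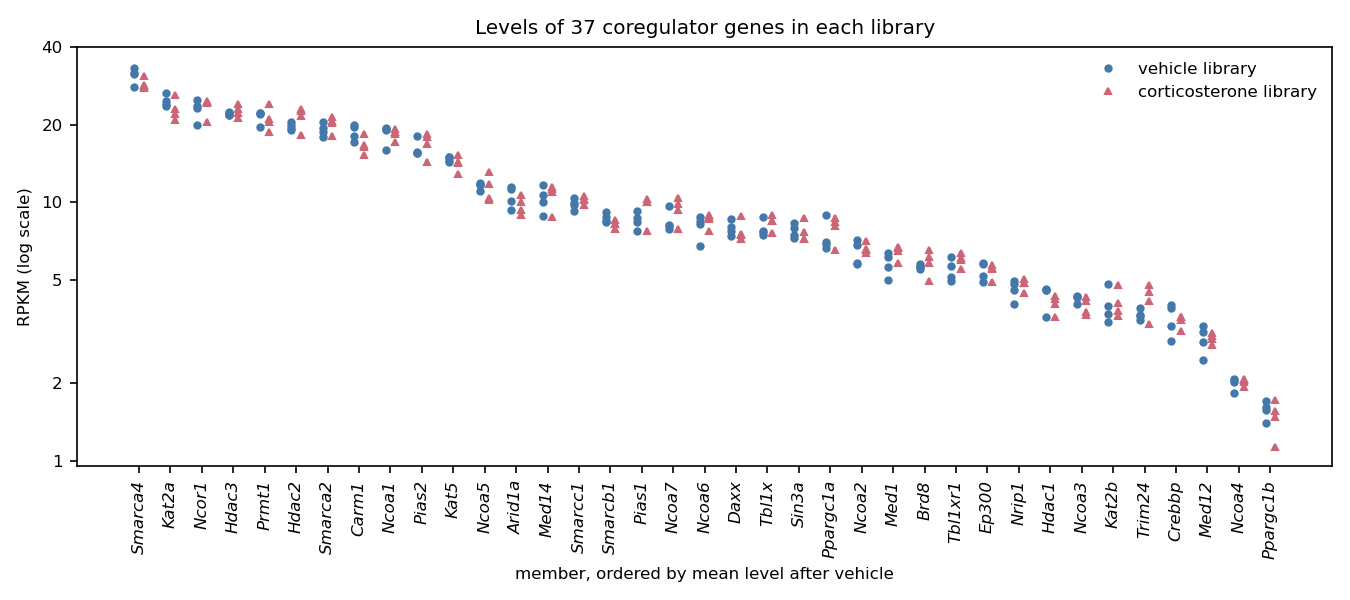
Level of each of the 37 coregulator genes in every library, in RPKM on a log axis, ordered by the mean after vehicle, with circles for the 4 vehicle and triangles for the 4 corticosterone libraries. The levels run from 31.1 RPKM (*Smarca4*) to 1.57 RPKM (*Ppargc1b*), and the points of the groups overlap in every member.

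Families of related proteins differed in how unevenly the summed level per length was shared among their members. Of the p160 coactivators, which are the first to dock on the receptor, *Ncoa1* made up 63.3% ± 1.65 after vehicle, *Ncoa2* 22.1% ± 1.55 and *Ncoa3* 14.7% ± 0.749 (SD, n = 4). These shares were 63.4% ± 1.64, 22.9% ± 1.09 and 13.7% ± 1.26 after corticosterone. In the pair of related acetyltransferases *Kat2a* and *Kat2b*, *Kat2a* made up 86.1% ± 1.96 and 84.8% ± 2.66. In the PGC-1 pair, coactivators best known for driving mitochondrial genes, *Ppargc1a* made up 82.4% ± 1.201 and 84.1% ± 3.81. The remaining families were more even. *Ep300* made up 60.6% ± 3.301 and 61.0% ± 2.39 of the sum with *Crebbp*, its close relative among the acetyltransferases. *Smarca4* made up 61.9% ± 1.58 and 58.9% ± 2.71 of the SWI/SNF ATPases, with *Smarca2* as the other. Of the summed level of *Hdac1*, *Hdac2* and *Hdac3*, which encode class I deacetylases, *Hdac3* held 47.8% ± 1.06 and 47.2% ± 2.45, *Hdac2* 42.8% ± 1.05 and 44.4% ± 3.13, and *Hdac1* 9.44% ± 1.04 and 8.45% ± 0.832. In each of these families the shares of the groups overlapped over all libraries. Without library 5 they did not overlap for *Smarca4* (57.5% ± 0.535 in libraries 6 to 8) and for *Ncoa3* (13.1% ± 0.622), and the other families still overlapped. These are 2 of 6 families (33.3%). Of all single genes 24.3% did not overlap without library 5, but counts of single genes are a measure unlike shares within a family. The fitted difference of *Smarca4* to *Smarca2* without library 5 went from -0.26 to -0.11 once a trend with GC content and transcript length was removed. The log2FC of *Ncoa3* without library 5 was -0.137 both before and after that removal.

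The promoters of the members were mostly of the CG-rich kind found at broadly expressed genes. RefSeq (GRCm38.p6) gave a promoter of 300 bases (250 before the start and 50 after it) for 29 of the 37 members, taken at the most upstream start listed. In 4 of them this start lay over 1000 bases inside the start of the GENCODE gene (*Ncoa6* 33111, *Smarcc1* 14316, *Pias1* 7045 and *Ncor1* 1209 bases), so their windows may not be the main promoter. They held a median of 27 CG pairs, from 1 in *Ncoa6* to 49 in *Crebbp* and *Ncoa1*, against a median of 7 in all 27025 promoters of the table, and 26 of the 29 (89.7%) had at least 10, against 44.0% of all. The GC box GGGCGG, searched on both strands, was in 22 of 29 (75.9%), against 35.9% of all promoters. The TATA box TATAAA on both strands was in *Ncoa6* alone (3.45%, against 14.2% of all), and CCAAT on both strands was in 8 (27.6%, against 38.0%). AGAACA, an arm of the palindrome bound by glucocorticoid receptors, was found on either strand in 5 (17.2%, against 19.0%), namely *Kat2a*, *Med14*, *Ncoa1*, *Ncoa4* and *Prmt1*. AGAACA followed after 3 bases by TGTTCT was in 0 of the 29 and in 0.0037% of all promoters. Such matches describe these windows and say nothing of binding elsewhere. The 150 bases before the start are printed below, 5′ to 3′ on the gene's strand, for *Ncoa1* and *Ncor1* as the most expressed p160 coactivator and the corepressor scaffold, for *Pias1* and *Trim24*, the genes on which the later result without library 5 turns, and for *Ppargc1a* as the contrast with few CG pairs. Capitals mark GGGCGG or its complement CCGCCC. They lie at chr12:4477183-4477332 (minus strand), chr11:62457333-62457482 (minus), chr9:62980880-62981029 (minus), chr6:37870661-37870810 (plus) and chr5:51567726-51567875 (minus).
Ncoa1: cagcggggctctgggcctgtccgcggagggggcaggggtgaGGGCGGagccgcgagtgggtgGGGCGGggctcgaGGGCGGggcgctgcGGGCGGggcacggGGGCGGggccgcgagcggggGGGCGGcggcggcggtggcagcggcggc
Ncor1: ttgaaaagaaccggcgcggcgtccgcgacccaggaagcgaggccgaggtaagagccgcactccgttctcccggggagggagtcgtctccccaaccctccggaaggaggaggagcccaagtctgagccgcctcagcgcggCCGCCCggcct
Pias1: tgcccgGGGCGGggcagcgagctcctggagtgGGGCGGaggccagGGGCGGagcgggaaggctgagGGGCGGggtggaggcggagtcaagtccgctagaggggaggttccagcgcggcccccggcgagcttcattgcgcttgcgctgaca
Trim24: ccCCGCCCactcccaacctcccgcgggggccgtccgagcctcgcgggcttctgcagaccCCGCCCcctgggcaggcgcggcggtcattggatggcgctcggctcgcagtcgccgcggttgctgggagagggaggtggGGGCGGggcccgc
Ppargc1a: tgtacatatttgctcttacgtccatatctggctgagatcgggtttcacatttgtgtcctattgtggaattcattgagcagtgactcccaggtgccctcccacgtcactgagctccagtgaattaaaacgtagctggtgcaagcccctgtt
The stretch of *Ncoa1* holds 6 GC boxes and 23 CG pairs, that of *Pias1* 4 and 15, that of *Trim24* 3 and 19, that of *Ncor1* 1 and 18, and that of *Ppargc1a* 0 and 4. The last is the sole one of the 5 without capitals.

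At 3 h after corticosterone, no coregulator gene passed the test against vehicle. By edgeR's quasi-likelihood test, 0 of the 37 passed the adjusted threshold and 0 had an unadjusted p under 0.05, where 9.03% of all genes tested did (4.51% higher and 4.52% lower after corticosterone). DESeq2 also called 0 of the 37, with 63 genes called in the whole table. In 0 of the 37 did the 4 values of a group lie outside those of the other, against 3.66% of all genes tested. The fitted difference was above 0 in 23 members and below 0 in 14. Once a trend with GC content and transcript length was removed (below, the GC content trend, described further on), the median log2FC was -0.0016. In the main fit it was 0.03, against 0.0036 over all genes tested. In this fit it ran from -0.16 in *Carm1* (-10.7%) to 0.19 in *Trim24* (14.4%). All 37 differences were within 0.2 on the log2 scale, as were 72.8% of all genes and 82.0% of the 10749 genes in the members' range of counts. The smallest adjusted p from edgeR was 0.545, and the smallest exact permutation p was 0.0857 (two-sided, *Carm1* and *Smarcb1*), where 4 against 4 mice allow 0.0286 at the least.

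The intervals say how large a change could have been missed. All 95% intervals held 0, and they reached at most from -24.7% (*Ppargc1b*) to 33.3% (*Trim24*). The interval lay within a change of 1.2-fold in either direction in 21 members and within 1.5-fold in all 37. The coefficient of variation between mice, as fitted by edgeR, was 7.12% to 12.5% in the members, with a median of 8.8%, against 11.1% over all genes tested and 9.8% over genes in the same range of counts. An interval that holds 0 does not show that a gene is the same in the groups, and changes within these intervals could not be told from 0 with 8 mice.

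**Figure D2:**
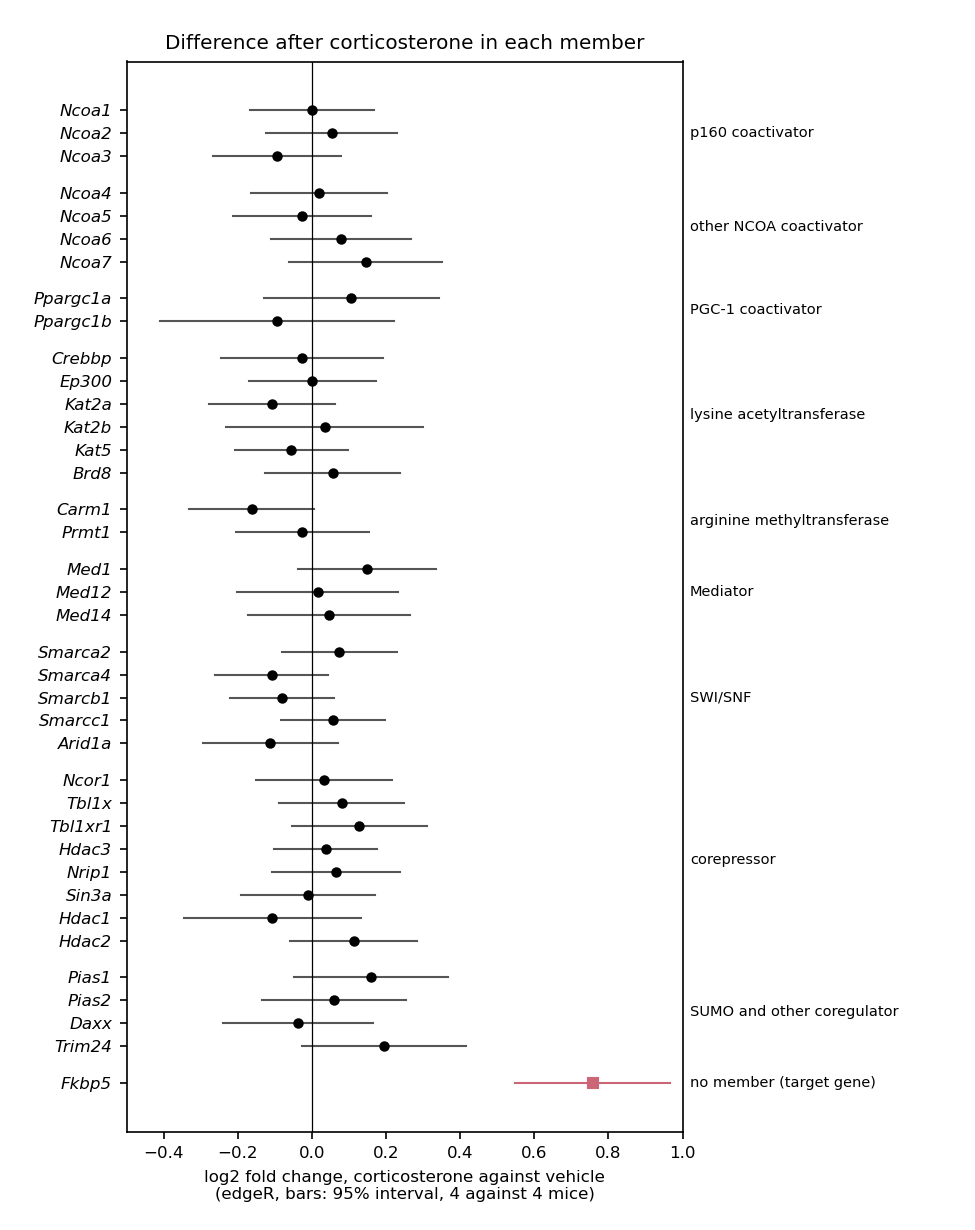
Log2 fold change of each member, corticosterone against vehicle (edgeR), with its 95% interval over 4 against 4 mice, in order of role, and *Fkbp5* below as a known target. All 37 intervals cross 0 and lie between -0.41 and 0.41, whereas *Fkbp5* is at 0.76.

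Among the p160 coactivators, *Ncoa1* (ENSMUSG00000020647, chr12:4247362-4477182, minus strand) had 3182, 2615, 3129 and 3171 normalized counts after vehicle and 2805, 3038, 3172 and 3085 after corticosterone. Vehicle library 2 was the lowest of all. Of the corticosterone libraries, 5, 6 and 8 were below the remaining vehicle libraries, and 7 was among them. The log2FC of *Ncoa1* was 0.0002 (95% interval -0.17 to 0.17), the value nearest to 0 of all members, and its sign turned under 4 of the alternative settings that kept all libraries. *Ncoa2* (ENSMUSG00000005886, chr1:13139105-13374083, minus) had 1747, 1738, 2058 and 2137 after vehicle and 1960, 2121, 1972 and 1917 after corticosterone, a log2FC of 0.05 (-0.12 to 0.23). The corticosterone values fell inside the range of the vehicle values. *Ncoa3* (ENSMUSG00000027678, chr2:165992636-166073242, plus) had 651.1, 612.2, 656.3 and 649.6 after vehicle and 652.1, 555.4, 626.4 and 571.0 after corticosterone, a log2FC of -0.10 (-0.27 to 0.08). Of the corticosterone libraries, 6 and 8 were below all vehicle libraries, while 5 and 7 were within their range.

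The other NCOA genes share a name more than a function. *Ncoa4* is best known for its role in the turnover of ferritin, and its level was 357.8 ± 20.5 and 362.5 ± 10.8 normalized counts (SD, n = 4), with a log2FC of 0.02. *Ncoa5*, which can both activate and repress, had a log2FC of -0.03, and *Ncoa6*, a subunit of a histone methyltransferase complex, one of 0.08. *Ncoa7* went from 1717 ± 170 to 1897 ± 220 (log2FC 0.14, 95% interval -0.06 to 0.35, and 0.01 with the GC content trend removed). It shares exon sequence on its own strand with *Hint3*, so its count is less certain. Of the PGC-1 pair, *Ppargc1a* had 869.2, 838.5, 890.1 and 1124 after vehicle and 829.5, 1021, 1060 and 1097 after corticosterone, a log2FC of 0.11 (-0.13 to 0.34). Vehicle library 4 was the highest of all and corticosterone library 5 the lowest. *Ppargc1b* was the least expressed member, with 120.0 ± 9.87 and 112.5 ± 18.9 (log2FC -0.09), and had the widest interval (-0.41 to 0.22).

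The lysine acetyltransferases loosen chromatin by acetylating histones, and their genes had log2FCs between -0.11 and 0.03. *Ep300* was at 1485 ± 126 and 1486 ± 97.2 normalized counts (SD, n = 4) and *Crebbp* at 918.3 ± 135 and 901.7 ± 51.9. *Kat2a* went from 1650 ± 87.6 to 1531 ± 146 (log2FC -0.11, and 0.01 with the GC content trend removed). *Kat2b* and *Kat5*, of which the latter is the catalytic subunit of the NuA4 complex, had log2FCs of 0.03 and -0.06, and *Brd8*, a bromodomain subunit of the same complex, one of 0.06. The arginine methyltransferases mark histones beside the p160 proteins. *Carm1* (chr9:21546894-21592623, plus) had 1822, 1682, 1855 and 1592 normalized counts after vehicle and 1712, 1546, 1530 and 1422 after corticosterone. Libraries 6 to 8 were below all vehicle libraries, and library 5 was above 2 of them. Its log2FC of -0.16 (95% interval -0.33 to 0.01) was the lowest of the members in this fit (edgeR adjusted p = 0.545). With the GC content trend removed it was -0.04, and *Hdac1* (-0.12), *Smarcb1* (-0.10) and *Ncoa3* (-0.10) were among those lower. *Prmt1* had a log2FC of -0.03, and 0.04 with the trend removed.

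Of the Mediator subunits, which link activators to RNA polymerase, *Med1* carries the contact to nuclear receptors. It had 939.9, 842.4, 1034 and 1070 normalized counts after vehicle and 979.6, 1086, 1118 and 1124 after corticosterone. As for *Carm1*, libraries 6 to 8 were beyond the vehicle range and library 5 was within it, here in the upward direction. The log2FC of *Med1* was 0.15 (95% interval -0.04 to 0.34), and 0.09 with the GC content trend removed. *Med12*, of the kinase module, and *Med14*, the backbone of the complex, had log2FCs of 0.01 and 0.05. The SWI/SNF genes differed in sign. *Smarca4* (chr9:21616169-21704230, plus) had 3920, 3478, 4128 and 3890 after vehicle and 3814, 3546, 3439 and 3497 after corticosterone, a log2FC of -0.11 (-0.26 to 0.04), and -0.01 with the GC content trend removed. Library 2 alone of the vehicle group reached down to the level of libraries 6 to 8. The log2FCs were 0.07 for *Smarca2*, -0.08 for the core subunit gene *Smarcb1*, 0.06 for *Smarcc1* and -0.11 for *Arid1a* (-0.01 with the trend removed), which defines the BAF form of the complex. *Smarcb1* had the lowest coefficient of variation between mice of all members (7.12%).

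*Ncor1* (ENSMUSG00000018501, chr11:62316426-62458541, minus), the scaffold that holds deacetylases on unliganded or repressing receptors, had 5718, 4882, 5782 and 6125 normalized counts after vehicle and 5022, 6061, 5994 and 5934 after corticosterone. The low libraries were 2 and 5, 1 in each group, and the others intermixed. The log2FC was 0.03 (95% interval -0.15 to 0.22). *Tbl1x* and *Tbl1xr1*, which exchange corepressor for coactivator complexes, had log2FCs of 0.08 and 0.13. Those of the deacetylase genes were -0.11 for *Hdac1*, 0.11 for *Hdac2* and 0.04 for *Hdac3*. With the GC content trend removed, *Hdac1* was at -0.12, *Hdac2* at 0.0073, *Hdac3* at -0.02 and *Tbl1xr1* at 0.03. *Nrip1*, a repressor that binds receptors with agonist, was at 0.07 and the scaffold gene *Sin3a* at -0.01. The last 4 genes are modifiers of receptor activity. *Pias1* and *Pias2*, E3 ligases for SUMO, had log2FCs of 0.16 (-0.05 to 0.37) and 0.06, *Daxx*, a histone chaperone, -0.04, and *Trim24*, a reader of histone marks that binds receptors, 0.19 (-0.03 to 0.41).

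The balance between functionally opposed or related genes was also compared within each library, where library scaling cancels but a trend with GC content does not. The log2 ratio of *Ncoa1* to *Ncor1* per length was -0.27, -0.32, -0.31 and -0.37 after vehicle and -0.26, -0.42, -0.34 and -0.36 after corticosterone. The coactivator was thus at about the same share of the corepressor in every library, with a mean ratio of 0.803 after vehicle and 0.787 after corticosterone. The log2 ratio of *Smarca4* to *Smarca2* was 0.71, 0.64, 0.83 and 0.62 after vehicle and 0.76, 0.41, 0.43 and 0.47 after corticosterone. Libraries 6 to 8 were below all vehicle libraries and library 5 was among them. For *Hdac1* to *Hdac2* the means were -2.18 ± 0.187 and -2.39 ± 0.235 (SD, n = 4), for *Ppargc1a* to *Ppargc1b* 2.20 ± 0.121 and 2.42 ± 0.409, and for *Pias1* to *Pias2* -0.92 ± 0.0769 and -0.83 ± 0.0615. Removal of the GC content trend described further on changed the fitted difference between groups from 0.20 to -0.02 for *Ppargc1a* to *Ppargc1b*, from -0.14 to 0.03 for *Kat2a* to *Kat2b*, from -0.18 to -0.08 for *Smarca4* to *Smarca2* and from -0.22 to -0.13 for *Hdac1* to *Hdac2*. Without library 5 the fitted difference was 0.37 for *Ppargc1a* to *Ppargc1b*, -0.26 for *Kat2a* to *Kat2b*, -0.26 for *Smarca4* to *Smarca2* and -0.31 for *Hdac1* to *Hdac2*. With the trend removed as well it was -0.0047, 0.02, -0.11 and -0.16. For *Pias1* to *Pias2* the fitted difference changed little, from 0.0999 to 0.0973 with all libraries and from 0.117 to 0.111 without library 5. In 0 of the 9 pairs did the groups lie apart over all libraries. Without library 5 they lay apart in 2 (22.2%), *Smarca4* to *Smarca2* (0.41 to 0.47 in libraries 6 to 8) and *Pias1* to *Pias2* (-0.84 to -0.74, against -1.01 to -0.8447 after vehicle). Of all single genes 24.3% lay apart without library 5, but counts of single genes are a measure unlike ratios.

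**Figure D3:**
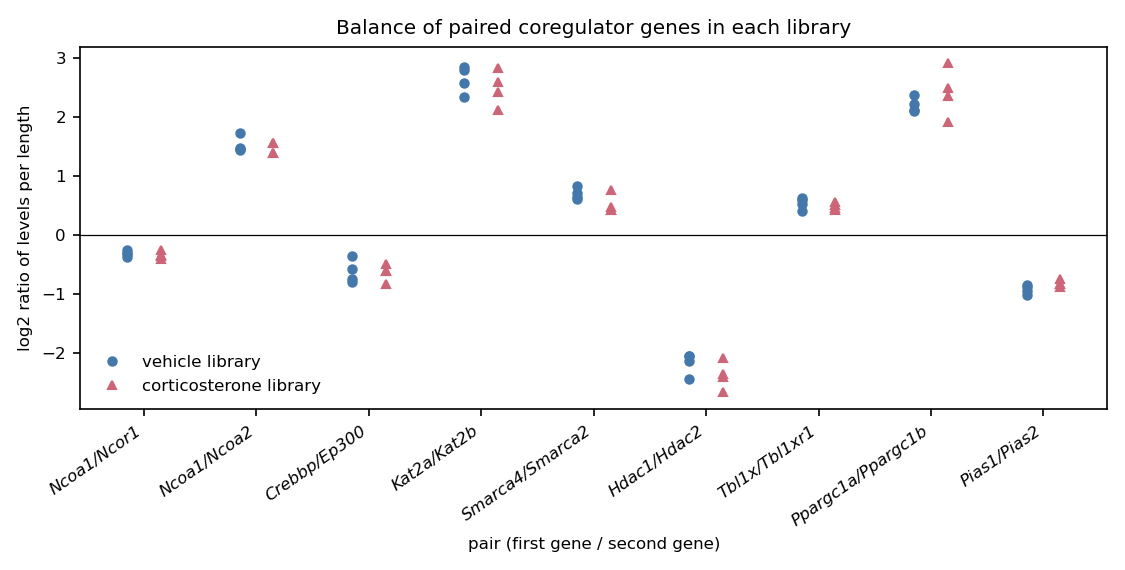
Log2 ratio of the levels per length of the genes of 9 pairs in each library, with circles for vehicle and triangles for corticosterone. Over all 8 libraries the groups overlap in every pair, and the mean of *Ncoa1*/*Ncor1* is -0.32 after vehicle and -0.35 after corticosterone.

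Corticosterone library 5 bore on most members. Its value was outside the range of the other 3 libraries of its group in 30 of the 37 members, the lowest in 19 and the highest in 11. For the other 7 libraries, the number of members in which a library lay outside its group was between 8 and 25. Without library 5, edgeR called 2 of the 37 (5.41%), where 10.2% of all genes were called. They were the members with the 2 highest log2FCs over all libraries. *Pias1* (chr9:62878368-62987924, minus) had 1101, 1013, 1135 and 1214 normalized counts after vehicle and 1012, 1315, 1316 and 1345 after corticosterone. Libraries 6 to 8 lay close together above all vehicle libraries, and library 5 was at the lowest vehicle value. Without library 5 the log2FC of *Pias1* was 0.25 (edgeR adjusted p = 0.0409). *Trim24* (chr6:37870811-37966296, plus) had 593.2, 597.5, 574.2 and 637.7 after vehicle and 553.6, 781.1, 735.7 and 679.1 after corticosterone. Here too libraries 6 to 8 were above all vehicle libraries, and library 5 was below them all. Without library 5 its log2FC was 0.28 (edgeR adjusted p = 0.0367). These genes were named after their values had been seen.

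At an unadjusted p under 0.05 there were 7 members without library 5 (18.9%), where 29.0% of all genes reached it. Besides *Pias1* and *Trim24*, these were *Ncoa7* (log2FC 0.22), *Med1* (0.19) and *Hdac2* (0.18), above 0, and *Kat2a* (-0.17) and *Carm1* (-0.21), below 0. With the GC content trend also removed, these were 0.01 for *Ncoa7*, 0.11 for *Med1*, 0.02 for *Hdac2*, 0.03 for *Kat2a* and -0.0067 for *Carm1*. Without library 5 the groups lay apart in 9 members (24.3%), against 24.3% of all genes, namely in *Kat2a*, *Kat5*, *Brd8*, *Carm1*, *Med1*, *Smarcb1*, *Hdac2*, *Pias1* and *Trim24*. These shares were below or near those of the whole table, so the members were not set apart from other genes in this. Leaving out any other library gave 0 called members.

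**Figure D4:**
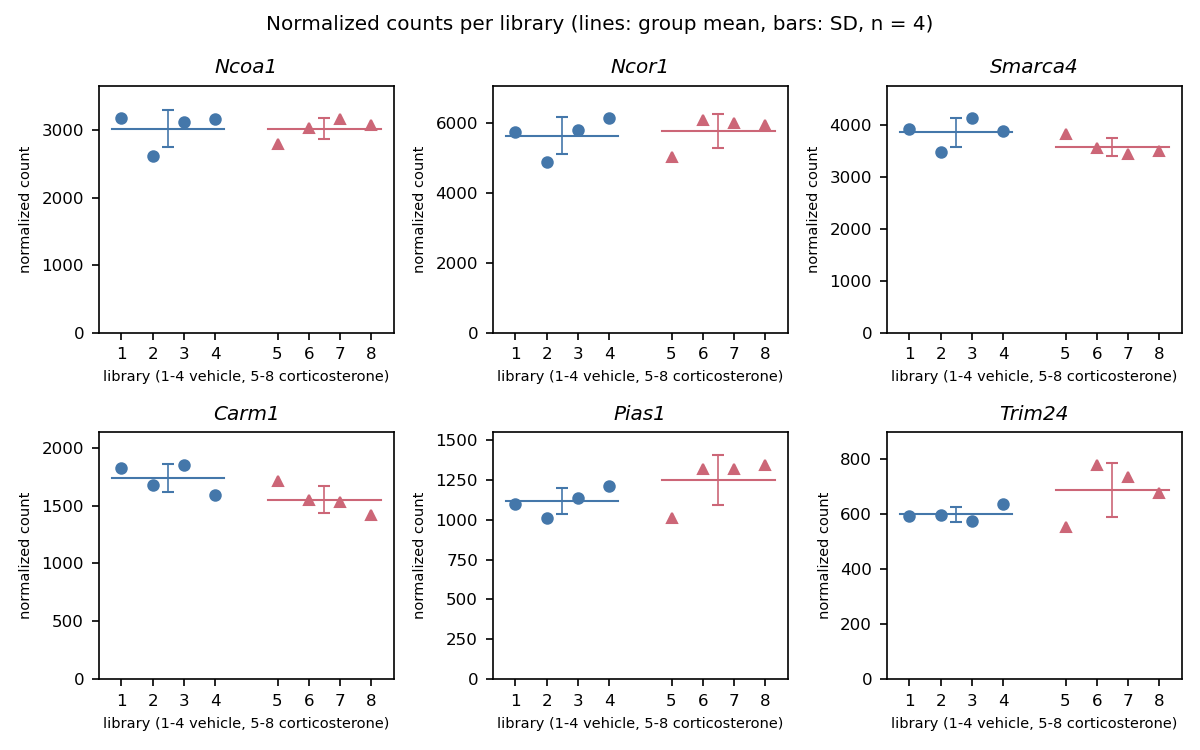
Normalized counts of 6 members in each library (1 to 4 vehicle, 5 to 8 corticosterone), with lines for the group means and bars for the SD (n = 4). In *Pias1*, libraries 6 to 8 lie at 1315 to 1345 and library 5 at 1012, and in *Ncor1* library 5 (5022) and vehicle library 2 (4882) are the low ones.

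The sign of a member's difference went with the base composition of its transcript. Over the 37 members, the log2FC and the GC content of the longest transcript had a Pearson's r of -0.78 (Spearman's rho -0.79). These points share the same 8 libraries and genes are not independent replicates, so this is a description. Of the 14 members with a GC content above 50%, 3 had a log2FC above 0 and 11 below 0. Of the 23 others, 20 were above 0 and 3 below. The members with the lowest GC content were *Ncoa7* (39.6%, log2FC 0.14) and *Ppargc1a* (41.7%, log2FC 0.11), and those with the highest were *Ppargc1b* (57.8%, log2FC -0.09) and *Carm1* (57.4%, log2FC -0.16). *Trim24*, the member with the highest log2FC, had a GC content near the middle of the range (49.1%). Over the 15983 tested genes with a known GC content, r was -0.40, and thus the relation was not confined to coregulators.

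The libraries differed in this relation within a group. Across the 37 members, the deviation of a library from the mean of all 8 correlated with GC content with r = 0.26, 0.47, 0.75 and -0.20 in vehicle libraries 1 to 4. In the corticosterone libraries r was 0.78 in library 5 and -0.55, -0.69 and -0.81 in libraries 6 to 8. Library 5 thus had the sign of 3 of the 4 vehicle libraries. The relation thus went largely with the groups, so its removal can also take out a difference made by the treatment, and these cannot be told apart. Once GC content and transcript length had been fitted over the tested genes and removed per library, r over the members was 0.06. A value near 0 follows from the removal itself. The signs were 8 above and 6 below 0 in the members rich in GC and 10 above and 13 below in the others. The log2FC was then 0.01 for *Ncoa7*, 0.0039 for *Ppargc1a*, 0.03 for *Ppargc1b*, -0.04 for *Carm1*, 0.06 for *Pias1* and 0.17 for *Trim24*, and 0 members were called among 19 genes of the whole table. With the trend removed and library 5 left out, the log2FC was 0.09 for *Pias1* (edgeR adjusted p = 0.464) and 0.25 for *Trim24* (edgeR adjusted p = 0.0945), and 0 of the 37 members were called, where 1.08% of all genes were.

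**Figure D5:**
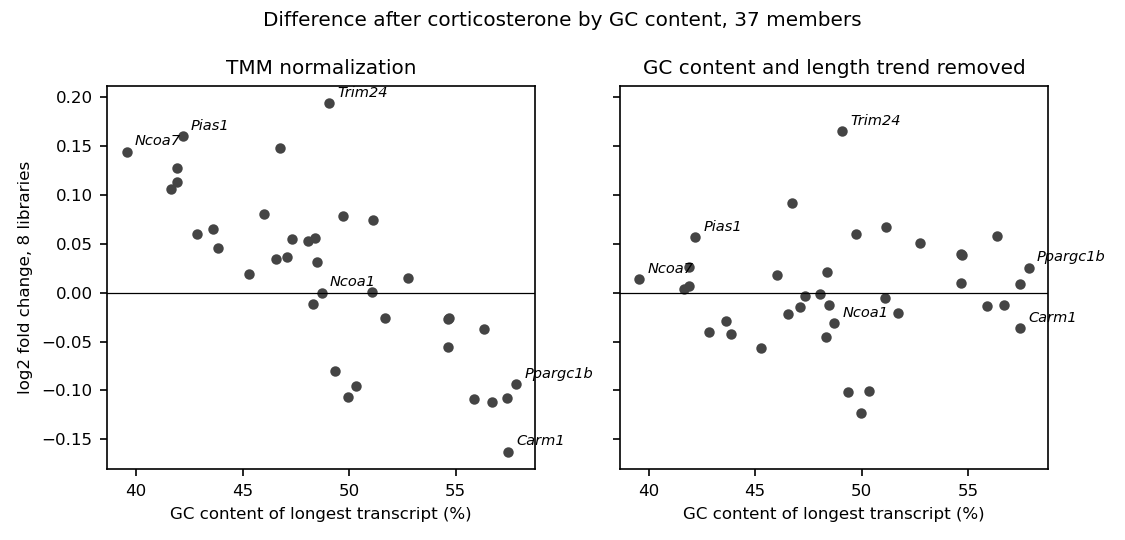
Log2 fold change of the 37 members (corticosterone against vehicle, all 8 libraries) against the GC content of the longest transcript in percent, before (left) and after (right) a trend with GC content and transcript length was removed from every library. The slope seen on the left (r = -0.78) was taken out by the fit on the right (r = 0.06), where *Trim24* remains the highest point.

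Other genes of the same complexes were looked at beside the members. These were 80 further genes (other Mediator, SWI/SNF, deacetylase, Sin3 and NCoR complex genes and other coregulators that the study profiled), of which 79 were tested. Of these, edgeR called 0, and their median log2FC was -0.04. The log2FC was above 0 in 27 (34.2%) and below 0 in 52, where 50.7% of all genes tested were above 0. Values with the GC content trend removed are not given for these genes, so the part of that trend in their signs was not tested. At an unadjusted p under 0.05, 1 was higher (*Coro2a*, of the NCoR complex, log2FC 0.20) and 6 were lower. The lower ones were *Med10* (-0.26) and *Med25* (-0.29) of Mediator, *Smarcd1* (-0.17), *Smarcd3* (-0.22) and *Dpf1* (-0.25) of SWI/SNF, and *Rad9a* (-0.32), a DNA damage checkpoint gene. These 7 of 79 (8.86%) compare with 9.03% of all genes tested. The groups did not overlap in 3 of the 79 (3.8%, 2 higher and 1 lower), against 3.66% of all genes tested.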

How the data were processed

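The authors made stranded libraries from mRNA, sequenced paired reads of 100 bases on DNBseq, aligned them to the mouse genome (mm10 per the labels) with GSnap and deposited raw counts per gene from HTSeq-count 0.6.0. The annotation release and the strand setting of the counting are not given in the sources used here, and a count is thus less certain for the 4 members that share exon bases with a gene on the same strand (*Ncoa7*, *Ep300*, *Med12* and *Smarca4*) and the 8 with one on the opposite strand (*Ncoa1*, *Ncoa3*, *Kat5*, *Carm1*, *Smarca2*, *Smarcc1*, *Ncor1* and *Sin3a*). Rows of the table that name no gene held 13.7% to 15.4% of its reads and were left out, and 0 sample columns were unused. The 37 members and the other lists were chosen with earlier results of these data known. Symbols and coordinates came from GENCODE M21 (GRCm38), which held 50462 of the 50686 identifiers.

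Counts were scaled with TMM, filtered with filterByExpr and compared by quasi-likelihood in edgeR 4.0.16 under R 4.3.3, corticosterone against vehicle without covariates, adjusted over all 16018 genes. DESeq2 1.42.0 was an alternative. Normalized counts are TMM-scaled, ratios used a prior count of 2, and single genes were also tested by exact permutation over the 70 assignments of 4 against 4. To remove trends with base composition and length, splines of 5 degrees of freedom were fitted to each library. Other alternatives were other scalings and filters and each library left out. Per-library values were given for the p160 genes and *Ncor1* by rule, and for other members after their values had been seen. The script was tested on simulated data of 15873 genes, where 93% of changes of 1 on the log2 scale were found and 4.38% of calls were false. Depth was 17492159 to 19931987 reads on genes per library. Each library was 1 mouse according to the methods of the study. Protein sequences, the single cell data and ChIP-seq data were not analysed here.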

Additional observations from a re-analysis of the deposited data

Results flagged for a closer look

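In the groups of 4 libraries, 1 value stood far from the other 3 in 11 of the 80 sets examined, where chance gives about 1 in 20. For the members, these were *Ncoa1* in vehicle library 2 with 2615 normalized counts (the other 3 were 3129 to 3182), *Ncoa3* in the same library with 612.2 (649.6 to 656.3), *Hdac1* in vehicle library 1 with 238.7 (301.7 to 306.2), and *Prmt1* and *Pias2* in vehicle library 4 with 1280 (1442 to 1454) and 1241 (1064 to 1075). In corticosterone library 5 these were *Ncor1* with 5022 (5934 to 6061) and *Pias1* with 1012 (1315 to 1345). The same library had 86.29% of its reads on genes (84.57% to 84.84% in the other 3), 1.483% of ambiguous reads (1.253% to 1.279%), and -19.16 on the first principal component (18.93 to 23.48). In vehicle library 4, 1.404% of the reads were ambiguous (1.639% to 1.674%). Of the 11 values, 5 came from corticosterone library 5 and 3 from vehicle library 4. The 80 sets share the same libraries and are not independent. The 11 therefore cannot be set against the 1 in 20 that the rule gives by chance for independent sets.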

How the results depend on the processing

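The number of members past the threshold was 0 under DESeq2, under edgeR with the size factors of DESeq2 or with upper-quartile scaling, without a filter, with at least 10 counts in every sample, and with a trend for GC content and transcript length removed. With 1 library left out it was 0 to 2, and the number at an unadjusted p under 0.05 was 0 to 7 (0 to 5 higher, 0 to 2 lower). The number of members whose groups lay apart was then 0 to 9. The highest of these values came without corticosterone library 5. Without vehicle library 4, *Ncoa7*, *Carm1* and *Tbl1xr1* were under an unadjusted p of 0.05 (15.3% of all genes, against 3 of 37 members or 8.11%), and without vehicle library 2 *Smarca4* was (2.7% of the members and 6.63% of all genes). With the trend removed and library 5 left out, a setting chosen after seeing the data, 0 members passed the threshold, 3 were under an unadjusted p of 0.05 (2 higher, *Smarca2* and *Trim24*, and 1 lower, *Smarcb1*), and 3 did not overlap between groups. The 3 are 8.11% of the members, where 16.0% of all genes had such a p and 14.2% did not overlap. The median log2FC of the members was -0.0016 with the trend removed and between 0.0019 and 0.046 in all other settings. Of 555 single values under 15 settings, 487 had the sign given in the report and 68 did not, none larger than 0.097 in size. With all libraries, the log2FC was -0.0014 for *Ncoa1* and -0.00066 for *Ep300* with DESeq2, -0.0018 for *Ncoa1* and -0.00099 for *Ep300* with its size factors in edgeR, and -0.00082 for *Ncoa1* and -2.9e-05 for *Ep300* without a filter. With the trend removed it was -0.031 for *Ncoa1*, -0.0016 for *Ncoa2*, -0.056 for *Ncoa4*, 0.039 for *Ncoa5*, 0.026 for *Ppargc1b*, -0.0049 for *Ep300*, 0.0088 for *Kat2a*, -0.021 for *Kat2b*, 0.0095 for *Kat5*, -0.0031 for *Brd8*, 0.039 for *Prmt1*, -0.042 for *Med14*, -0.012 for *Ncor1*, -0.015 for *Hdac3*, -0.029 for *Nrip1*, -0.040 for *Pias2* and 0.058 for *Daxx*. With the trend removed and library 5 left out it was -0.0053 for *Ncoa1*, -0.013 for *Ncoa2*, -0.097 for *Ncoa4*, 0.016 for *Ncoa5*, 0.030 for *Ppargc1b*, 0.026 for *Kat2a*, 0.024 for *Kat5*, 0.024 for *Prmt1*, -0.0060 for *Med14*, 0.015 for *Smarca4*, 0.011 for *Arid1a*, -2.2e-05 for *Tbl1xr1*, -0.032 for *Hdac3*, -0.044 for *Nrip1*, -0.021 for *Pias2* and 0.058 for *Daxx*. With 1 library left out, the lowest and highest log2FC were -0.063 to 0.035 for *Ncoa1*, -0.026 to 0.039 for *Ncoa4*, -0.10 to 0.020 for *Ncoa5*, -0.18 to 0.011 for *Ppargc1b*, -0.11 to 0.037 for *Crebbp*, -0.045 to 0.046 for *Ep300*, -0.056 to 0.14 for *Kat2b*, -0.0051 to 0.13 for *Brd8*, -0.094 to 0.026 for *Prmt1*, -0.066 to 0.071 for *Med12*, -0.020 to 0.13 for *Med14*, -0.030 to 0.092 for *Ncor1*, -0.074 to 0.021 for *Sin3a* and -0.11 to 0.0060 for *Daxx*. The cause of these changes of sign was not tested. No paired analysis was possible because the groups share no replicate number. On simulated data of this comparison (15873 genes), edgeR recovered 60% of simulated log2 changes of 0.5. The simulation held no trend with GC content and no deviating library, so this share may be too high for the real libraries.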
